A study of Saccharomyces cerevisiae and Saccharomyces paradoxus and Saccharomyces cerevisiae x Saccharomyces paradoxus with 12 samples.

Results

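The total mRNA of an F1 hybrid yeast was set against that of its parent Saccharomyces cerevisiae, gene by gene and with the reads of both alleles of the hybrid added together. The comparison used 4 of the 12 libraries of the series. They were the 2 RNA-seq libraries of the hybrid (strain GSY88) and the 2 RNA-seq libraries of S. cerevisiae (strain GSY83). All genes of the count table entered, which gave 5226 genes, of which 5159 had enough reads to be tested. The series also holds its relative S. paradoxus (strain GSY82), the other parent, and asks about differences in mRNA and in its translation, so the other 8 libraries are RNA-seq of S. paradoxus and Ribo-seq of the 3 strains. Ribo-seq, or ribosome profiling, sequences the mRNA pieces that ribosomes protect, and its count per gene is called occupancy below. Every strain was diploid per the labels, grew in rich glucose medium (YEP+D) at 30 °C to an OD600 of 0.6 to 0.9, and met cycloheximide, which stalls ribosomes, 5 min before polysome extracts were made. Each species and the hybrid were represented by 1 strain. Nothing in the labels ties the replicates to cultures of their own, and the p-values therefore cover the spread between libraries, which may be technical. That spread was estimated from all 12 libraries, those of S. paradoxus and of Ribo-seq included.

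A hybrid of this kind carries 1 genome from each species in the same nucleus, and the transcription factors of both parents can act on both alleles. The total level of a gene can therefore sit near either parent, between them or outside both. In baker's yeast on rich glucose, mRNA is dominated by genes of fermentation and of the ribosome, and the genes for purine, sterol, amino acid, phosphate and metal supply are each controlled by feedback from their own product. Genes of stress, respiration and stored carbohydrate are held down while glucose lasts.

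The hybrid RNA-seq libraries held 13854808 and 12911546 counts, and the S. cerevisiae RNA-seq libraries held 7109313 and 7201063. Each library was scaled to its own total, as CPM, which is the count of a gene divided by the library total and multiplied by 1000000. On that scale the median gene was lower in the hybrid, with a log2 difference (hybrid minus S. cerevisiae) of -0.30 over the 5159 genes tested. The 100 genes with the highest mean CPM over the 4 libraries took 32.0% and 29.4% of the hybrid counts, against 26.3% and 27.0% of the S. cerevisiae counts. Scaling by trimmed mean of M-values (TMM), which centres the bulk of genes, moved the median to -0.01. Relative statements below therefore also give the distance from the median of all genes. The hybrid replicates stood further apart than the S. cerevisiae replicates. The SD over genes of the log2 difference between replicates was 0.57 in hybrid RNA-seq and 0.196 in S. cerevisiae RNA-seq. It was 0.252 in hybrid Ribo-seq and 0.258 in S. cerevisiae Ribo-seq. Since the test shares its estimate of the spread among all libraries, it can understate the spread of the hybrid RNA-seq libraries. Hybrid replicate 2 held less mRNA of ribosomal protein and ribosome biogenesis genes than hybrid replicate 1 and more of galactose, trehalose and stress genes. Counts with 1 library left out are given for this reason, always in the order hybrid replicate 1, hybrid replicate 2, S. cerevisiae replicate 1 and S. cerevisiae replicate 2. Where a group was left with 1 library, that library was assumed to vary like the others.

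Of 5159 genes tested, 1844 (35.7%) differed at an adjusted p under 0.05 in the quasi-likelihood test of edgeR (Benjamini-Hochberg), of which 374 were higher in the hybrid (7.25%) and 1470 were lower (28.5%). All adjusted p-values below come from that test. A difference of at least 2-fold was found for 138 of the higher and 445 of the lower genes, and called genes had a median size of difference of 0.83 (log2). Under TMM scaling 731 genes were higher (14.2%) and 579 lower (11.2%), so that 55.8% of the calls were higher under TMM and 20.3% on own totals. The 374 higher genes were all higher under TMM too, and 579 of the 1470 lower genes were lower under both scalings. Without hybrid replicate 1, 641 genes were higher (12.4%) and 1890 lower (36.6%), and without hybrid replicate 2, 334 were higher (6.47%) and 1458 lower (28.2%). Without S. cerevisiae replicate 1, 142 were higher (2.74%) and 516 lower (9.97%), and without S. cerevisiae replicate 2, 135 were higher (2.61%) and 561 lower (10.8%). A stricter set passed under both scalings and with any 1 of the 4 libraries left out, and it held 106 higher genes (2.05%) and 409 lower genes (7.93%). A gene of this set is described below as holding its call. The set does not draw on a fit of the 4 libraries alone, which gave 94 higher and 318 lower genes. Counts of list members below stand against 7.25% higher and 28.5% lower over all genes. Under TMM those shares were 14.2% and 11.2%. Groups that did not overlap, with both hybrid values on the same side of both S. cerevisiae values, were found at 3502 genes (67.9%).

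**Figure D1:**
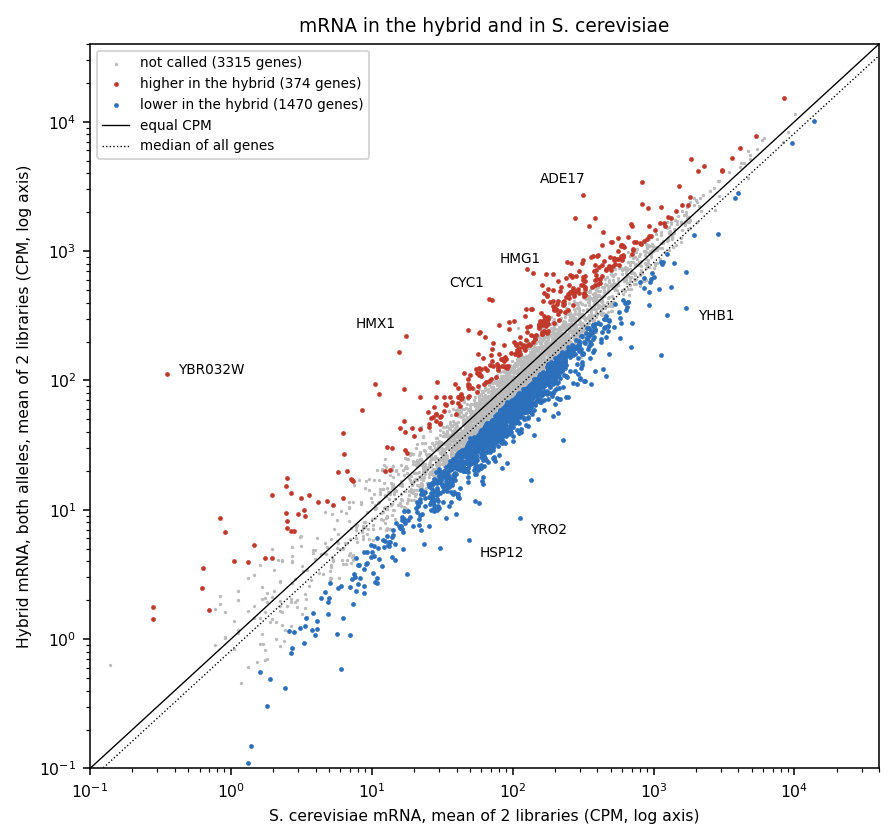
Mean mRNA of each of the 5159 tested genes in the hybrid (vertical axis, CPM, both alleles added) and in S. cerevisiae (horizontal axis, CPM), both on log axes, each a mean of 2 libraries. The 374 genes higher in the hybrid lie above the line of equal CPM and the 1470 lower genes below it, and the dotted line marks the median of all genes at a log2 difference of -0.30.

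The gene with the largest gain was YBR032W (chromosome II, 301519 to 301821; positions are those of sacCer3 and cover coding sequence), an ID without a gene name. It had 116 and 109.9 CPM in the hybrid libraries, against 0.563 and 0.139 CPM in the S. cerevisiae libraries. The S. cerevisiae values rest on 4 and 1 reads and the hybrid values on 1610 and 1419, which gives a ratio of 324 with a 95% exact interval of 139 to 998 that covers counting error only. Of its hybrid reads 99.8% came from the S. paradoxus allele, and the S. paradoxus libraries had 285 and 201 CPM. No Ribo-seq library of any strain held more than 2 reads of it.

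Other genes with large gains worked in heme, copper, membrane transport and purine supply. HMX1 (chromosome XII, 552724 to 553677), the heme oxygenase that releases iron from heme, had 188 and 254 CPM in the hybrid, against 21.4 and 13.7 CPM in S. cerevisiae, a log2 difference of 3.65 (SE 0.31, adjusted p = 3.8e-05). CTR3, a high-affinity copper transporter of the plasma membrane, had 90.9 and 95.3 CPM in the hybrid, against 13.5 and 7.64 CPM in S. cerevisiae, a difference of 3.14 (SE 0.31, adjusted p = 7.9e-05). CYC1 (chromosome X, 526335 to 526664), iso-1-cytochrome c of the respiratory chain, had 461 and 397 CPM in the hybrid, against 73.7 and 61.2 CPM in S. cerevisiae, a difference of 2.67 (SE 0.20, adjusted p = 1.6e-05). All 3 genes hold their call, and neither hybrid library came near an S. cerevisiae library.

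The alleles contributed unequally to part of these gains. RTA1, a membrane protein linked to tolerance of a sterol analog, had 129.8 and 200.1 CPM in the hybrid and 18.8 and 12.5 CPM in S. cerevisiae, with 94.1% of the hybrid reads from the S. paradoxus allele. PDR18, an ABC transporter of the pleiotropic drug resistance family, had 37.1 and 80.6 CPM in the hybrid and 8.86 and 8.19 CPM in S. cerevisiae, with 96.2% from S. paradoxus. MUP3, a low-affinity methionine permease, had 65.2 and 90.8 CPM in the hybrid and 11 and 11.4 CPM in S. cerevisiae, with 84.7% from S. paradoxus. In CTR3 the S. paradoxus share was 95.9% and in HXT17, a member of the hexose transporter family, it was 91.1%. HXT17 had 15.2 and 15.1 CPM in the hybrid and 2.81 and 2.08 CPM in S. cerevisiae, and its reads may be shared with near-identical family members. The shares were closer to even in ADE17 (54.1%), ADE6 (56%), CYC1 (45.5%), SUE1 (60.8%), HMX1 (63.7%) and PUT4 (64.9%).

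SUE1, a mitochondrial protein needed for the breakdown of unstable forms of cytochrome c, had 15.7 and 19.7 CPM in the hybrid and 2.53 and 2.5 CPM in S. cerevisiae, a difference of 2.81 (SE 0.40, adjusted p = 0.00062). PUT4, the proline permease, had 17.2 and 60.6 CPM in the hybrid and 4.36 and 8.19 CPM in S. cerevisiae, a difference of 2.63 (SE 0.53, adjusted p = 0.00356). Its hybrid libraries differed from each other by a wide margin. The lower one exceeded both S. cerevisiae values, which the choice of genes named by size required. The log2 differences of RTA1, MUP3, PDR18 and HXT17 were 3.40, 2.80, 2.78 and 2.63.

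Among the 12 genes with the largest losses, several are known from stress and stationary phase. YRO2 (chromosome II, 343101 to 344135), a plasma membrane protein induced by stress, had 7.72 and 9.53 CPM in the hybrid, against 109.9 and 117 CPM in S. cerevisiae, a difference of -3.72 (SE 0.36, adjusted p = 7.9e-05). HSP12 (chromosome VI, 107256 to 107585), a small membrane-stabilising heat shock protein, had 3.1 and 8.67 CPM in the hybrid, against 55 and 43.7 CPM in S. cerevisiae, a difference of -3.07 (SE 0.58, adjusted p = 0.00272). HSP31, a methylglyoxalase and chaperone of the DJ-1 family, had 29.3 and 40.6 CPM in the hybrid, against 177 and 276 CPM in S. cerevisiae, a difference of -2.70 (SE 0.30, adjusted p = 0.000185). For each of these the S. cerevisiae libraries lay several fold above both hybrid libraries. DCS2, a stress-induced regulator of the scavenger decapping enzyme, had 5.85 and 16.7 CPM in the hybrid and 51.3 and 64.7 CPM in S. cerevisiae.

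The most abundant gene of this set was YHB1 (chromosome VII, 959904 to 961103), the flavohemoglobin that detoxifies nitric oxide. It had 375 and 351 CPM in the hybrid, against 1500.3 and 1899 CPM in S. cerevisiae, a difference of -2.23 (SE 0.18, adjusted p = 2.8e-05). YNL134C, an alcohol dehydrogenase-like protein, had 114 and 200.4 CPM in the hybrid, against 892 and 1382 CPM in S. cerevisiae, a difference of -2.86 (SE 0.32, adjusted p = 0.000175). PHM8, a phosphatase of the phosphate response, had 16 and 18.3 CPM in the hybrid, against 144 and 126 CPM in S. cerevisiae, a difference of -2.98 (SE 0.26, adjusted p = 4.8e-05). The S. paradoxus libraries had 82 and 104 CPM for YHB1, 56.4 and 60.2 CPM for YNL134C and 3.8 and 3.75 CPM for PHM8, below the hybrid values in each case. RME1, the repressor of meiosis, had 3.39 and 6.66 CPM in the hybrid and 31.1 and 29.9 CPM in S. cerevisiae, a difference of -2.60 (SE 0.32, adjusted p = 0.000271). The remaining 4 were ICS2, IZH4, ATG29 and HIM1, with log2 differences of -2.48, -2.18, -2.10 and -2.10. IZH4 belongs to the zinc-linked IZH membrane proteins and ATG29 acts in autophagosome formation. The 24 genes named by size all hold their call.

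**Figure D2:**
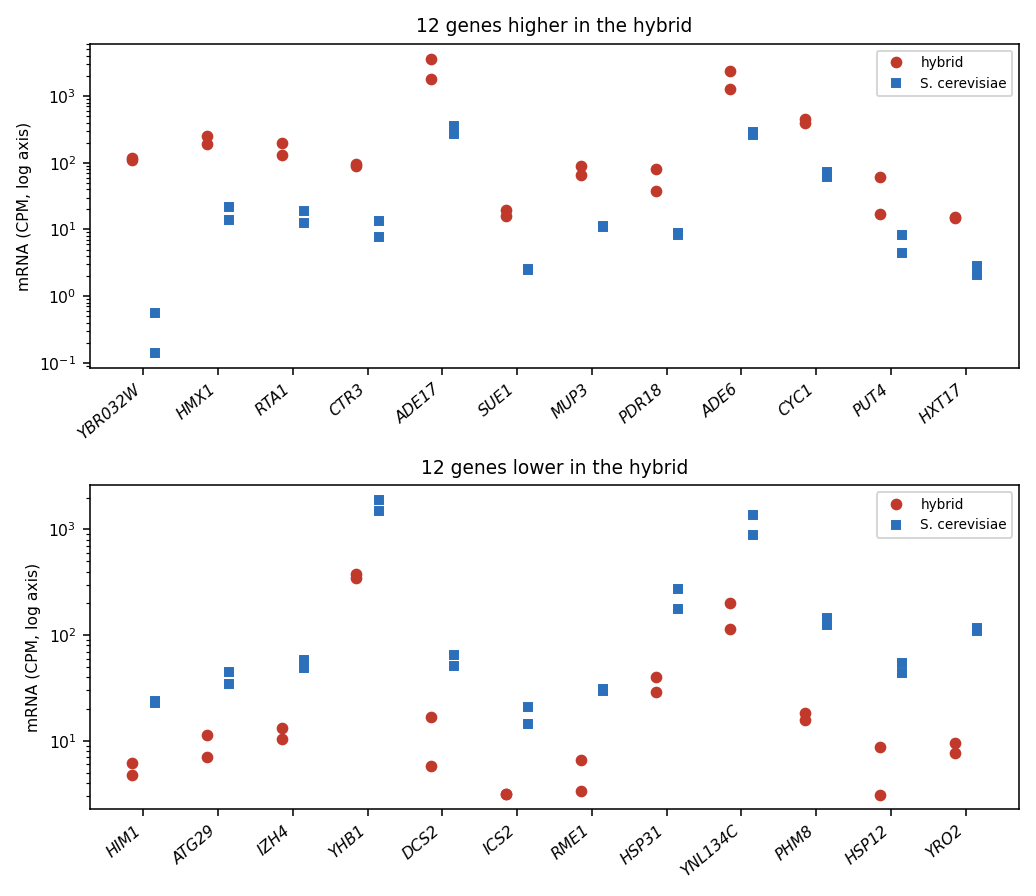
mRNA level (CPM, log axis) of the 12 genes with the largest gain and the 12 with the largest loss, each library as a point, with the 2 hybrid libraries (circles) left of the 2 S. cerevisiae libraries (squares). In every gene shown both hybrid points lie on the same side of both S. cerevisiae points, which the choice of these genes required. Of all tested genes 67.9% had groups that did not overlap.

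The list of purine and pyrimidine genes had the highest median of the 39 lists with all libraries in the fit. That rank was lost without either hybrid replicate. Without hybrid replicate 1 its median was 0.60, below galactose and maltose (0.98), hexose transport (0.73) and ergosterol (0.69). Without hybrid replicate 2 it was 0.44, below the respiratory (0.55) and ergosterol (0.47) lists. The ADE genes encode the enzymes that build inosine monophosphate, and in S. cerevisiae they are induced by the factors Bas1 and Pho2 when adenine is short. Of 26 purine and pyrimidine genes tested, 13 were higher and 4 lower (18 and 3 under TMM), and 8 of the higher and 2 of the lower hold their call. The list median was 0.63, which is +0.92 from the median of all genes, with a range of 0.75 to 0.998 when 1 library was left out. Higher members numbered 13, 13, 9 and 9 and lower members 4, 4, 2 and 4 with the libraries left out in turn.

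Along the pathway, ADE4, the first committed enzyme, had 671 and 655 CPM in the hybrid, against 195 and 193 CPM in S. cerevisiae, a difference of 1.77 (SE 0.36, adjusted p = 0.00398). ADE5,7, which carries 2 later steps in a single protein, had 1171 and 2429.7 CPM in the hybrid, against 373 and 397 CPM in S. cerevisiae, a difference of 2.22 (SE 0.36, adjusted p = 0.00128). ADE6, which catalyses a step between them, had 1276 and 2355 CPM in the hybrid, against 290.2 and 265 CPM in S. cerevisiae, a difference of 2.71 (SE 0.32, adjusted p = 0.000242). Both hybrid libraries exceeded both S. cerevisiae libraries in each of these genes, and hybrid replicate 2 was the higher one for ADE5,7 and ADE6. ADE1 and ADE13, which follow, differed by 2.28 (adjusted p = 0.00247) and 2.16 (adjusted p = 0.00274). ADE17 (chromosome XIII, 507502 to 509280), an isozyme for the last steps to inosine monophosphate, had 1808 and 3649.7 CPM in the hybrid, against 274 and 359 CPM in S. cerevisiae, a difference of 3.11 (SE 0.63, adjusted p = 0.00382). Its paralog ADE16 had 390.4 and 412 CPM in the hybrid and 485 and 530.1 CPM in S. cerevisiae, a difference of -0.34 (adjusted p = 0.103) that did not pass. ADE2 differed by 1.74 (adjusted p = 0.00655), with an adjusted p of 0.0511 without S. cerevisiae replicate 1. ADE8 differed by 0.86 (adjusted p = 0.0196), with an adjusted p of 0.0991 without hybrid replicate 2, 0.123 without S. cerevisiae replicate 1 and 0.0747 without S. cerevisiae replicate 2.

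ADE12, adenylosuccinate synthase of the branch from inosine monophosphate to AMP, differed by 1.64 (adjusted p = 0.00127). IMD3, an IMP dehydrogenase of the branch to GMP, went the other way, with 523 and 704 CPM in the hybrid and 1013 and 899.9 CPM in S. cerevisiae, and its adjusted p was 0.145 under TMM scaling and 0.105 without S. cerevisiae replicate 1. Its reads may be shared with its close relatives IMD2 and IMD4. One-carbon metabolism, to which ADE3, SHM2 and MTD1 belong, supplies formyl groups to the pathway. ADE3, the trifunctional tetrahydrofolate synthase, differed by 1.67 (adjusted p = 0.00252). SHM2, the cytosolic serine hydroxymethyltransferase, had 2130.4 and 4678 CPM in the hybrid, against 759 and 889 CPM in S. cerevisiae, a difference of 2.05 (adjusted p = 0.00713), and its adjusted p was 0.0588 without S. cerevisiae replicate 1. MTD1, a cytosolic methylenetetrahydrofolate dehydrogenase, differed by 1.51 (adjusted p = 0.0187), with an adjusted p of 0.106 without S. cerevisiae replicate 1 and 0.0792 without S. cerevisiae replicate 2. The regulator BAS1 had 64.2 and 41.8 CPM in the hybrid and 75.8 and 61.5 CPM in S. cerevisiae, with overlapping groups.

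The S. paradoxus RNA-seq libraries stood between or near these levels. They had 313 and 522 CPM of ADE4, 791 and 1741 CPM of ADE17 and 585 and 799 CPM of ADE1. Hybrid replicate 2 had more mRNA than hybrid replicate 1 for ADE5,7, ADE6, ADE13 and ADE17, and both replicates were at about the same level for ADE4 and ADE12. Of the pyrimidine genes named here, URA1, URA3 and URA4 were lower. URA1, dihydroorotate dehydrogenase, had 214 and 145 CPM in the hybrid, against 768 and 628 CPM in S. cerevisiae, a difference of -1.96 (SE 0.22, adjusted p = 0.000213). URA4, dihydroorotase, differed by -0.96 (adjusted p = 0.00249), and URA3 by -0.91 (adjusted p = 0.00846), with an adjusted p for URA3 of 0.0744 without S. cerevisiae replicate 1. URA2, the first enzyme, had 346 and 438 CPM in the hybrid and 318 and 251 CPM in S. cerevisiae and did not pass.

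**Figure D3:**
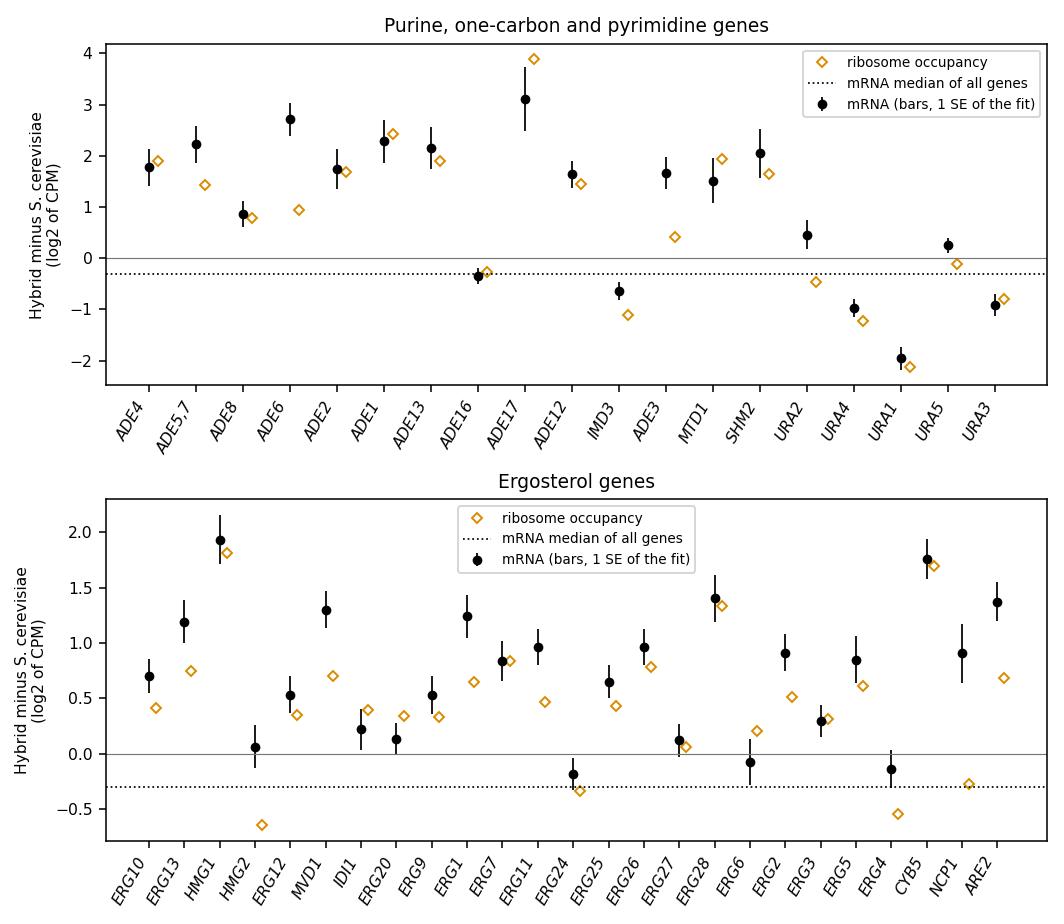
Differences (hybrid minus S. cerevisiae, log2 of CPM) of mRNA (filled points, bars of 1 SE of the fit) and of ribosome occupancy (open diamonds) for purine, one-carbon and pyrimidine genes and for ergosterol genes, in the order of the pathways. ADE17 has the largest mRNA difference at 3.11, and HMG1 leads the ergosterol genes at 1.93. Of the URA genes shown, URA1, URA3 and URA4 lie below 0 in mRNA, while URA2 and URA5 do not.

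Of the ergosterol genes that passed, all were higher in the hybrid. Ergosterol is the main sterol of fungal membranes, and its genes are induced in S. cerevisiae by Upc2 and Ecm22 when sterol is low. Of 30 genes tested, 17 were higher and 0 lower (20 and 0 under TMM), and 10 hold their call. The list median was 0.59, +0.89 from all genes (0.78 to 1.03 with 1 library left out), and the higher members numbered 18, 16, 11 and 12 with the libraries left out in turn. HMG1 (chromosome XIII, 115734 to 118898), the main HMG-CoA reductase and a rate-controlling step, had 507 and 816 CPM in the hybrid, against 173 and 174 CPM in S. cerevisiae, a difference of 1.93 (SE 0.22, adjusted p = 0.000226). Its paralog HMG2 had 95.8 and 154 CPM in the hybrid and 121 and 118 CPM in S. cerevisiae, with overlapping groups. CYB5, cytochrome b5, which passes electrons to sterol and lipid enzymes, had 232 and 199 CPM in the hybrid, against 67.2 and 60.3 CPM in S. cerevisiae, a difference of 1.76 (SE 0.18, adjusted p = 9.5e-05).

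Of the mevalonate steps, ERG13 (HMG-CoA synthase) differed by 1.19 (adjusted p = 0.00128) and MVD1 (mevalonate pyrophosphate decarboxylase) by 1.30 (adjusted p = 0.00034). Past squalene, ERG1 (squalene epoxidase) had 559 and 833 CPM in the hybrid, against 300.3 and 288 CPM in S. cerevisiae, a difference of 1.24 (SE 0.20, adjusted p = 0.00116). ERG11, the lanosterol demethylase that azole drugs inhibit, had 1168 and 1385 CPM in the hybrid, against 642 and 668 CPM in S. cerevisiae, a difference of 0.96 (SE 0.17, adjusted p = 0.00194). The scaffold ERG28, the sterol dehydrogenase ERG26 and the isomerase ERG2 differed by 1.40, 0.96 and 0.91 on the log2 scale. ARE2, which esterifies sterol for storage, differed by 1.37 (adjusted p = 0.000363). These 10 genes hold their call. The methyltransferase ERG6 and the desaturase ERG3 did not pass, with differences of -0.08 (adjusted p = 0.798) and 0.29 (adjusted p = 0.129). The regulators UPC2 and ECM22 did not pass either, at 0.22 and -0.25.

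Fatty acid and phospholipid genes were split. Of 29 tested, 8 were higher (27.6%) and 8 lower (27.6%), against 7.25% and 28.5% of all genes. Under TMM 11 were higher and 3 lower, and the median on own totals was -0.23 (+0.07 from all genes). OLE1, the fatty acid desaturase, had 748 and 962 CPM in the hybrid, against 352 and 284 CPM in S. cerevisiae, a difference of 1.43 (SE 0.21, adjusted p = 0.000692). ACC1, acetyl-CoA carboxylase, differed by 1.37 (adjusted p = 0.0037) and CHO2, a phosphatidylethanolamine methyltransferase, by 0.89 (adjusted p = 0.00322). The medium-chain elongase ELO1, the acyl-CoA synthetase FAA1 and the acyl-CoA binding protein ACB1 were lower, by -1.24, -1.36 and -0.81. In ELO1 and FAA1 the S. paradoxus allele gave 25.7% and 33.2% of the hybrid reads. Higher members numbered 12, 6, 4 and 3 and lower members 9, 9, 3 and 3 with the libraries left out in turn.

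The respiratory genes that passed were higher in the hybrid. Of 37 genes of the respiratory chain and ATP synthase, 15 were higher and 0 lower (25 and 0 under TMM). The list median was 0.39, +0.69 from all genes (0.56 to 0.86 with 1 library left out), and 14, 20, 5 and 7 members were higher with the libraries left out in turn. Beside CYC1, the NADH dehydrogenase NDE1 had 617 and 637 CPM in the hybrid, against 279 and 245 CPM in S. cerevisiae, a difference of 1.26 (SE 0.15, adjusted p = 0.000271). COX5A, the aerobic form of a cytochrome c oxidase subunit, had 173 and 202 CPM in the hybrid, against 76.9 and 96 CPM in S. cerevisiae, a difference of 1.12 (SE 0.19, adjusted p = 0.0018). RIP1, the Rieske iron-sulfur protein of complex III, differed by 1.10 (adjusted p = 0.00297), and ATP2, a catalytic subunit of the ATP synthase, by 0.91 (adjusted p = 0.00354). These 5 genes hold their call. HAP4, the activating subunit of the respiratory regulator, had 64.6 and 91.7 CPM in the hybrid and 42.2 and 44.4 CPM in S. cerevisiae, and its adjusted p of 0.0214 became 0.1 without hybrid replicate 2, 0.117 without S. cerevisiae replicate 1 and 0.0885 without S. cerevisiae replicate 2.

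The heme and hypoxia list, with 19 genes tested, had 5 higher and 5 lower members (6 and 2 under TMM) and a median of 0.09 (+0.39 from all genes). With the libraries left out in turn, 8, 4, 4 and 4 were higher and 4, 7, 2 and 4 lower. HEM1, the first enzyme of heme synthesis, had 214 and 326 CPM in the hybrid, against 77.4 and 82.1 CPM in S. cerevisiae, a difference of 1.76 (SE 0.21, adjusted p = 0.00024). HEM14, a later step, had 52 and 50.8 CPM in the hybrid, against 102 and 109 CPM in S. cerevisiae, a difference of -1.04 (SE 0.22, adjusted p = 0.00425). HAP1, the heme-responsive activator of CYC1 and of sterol genes, had 185 and 236 CPM in the hybrid, against 441 and 401 CPM in S. cerevisiae, a difference of -0.998 (SE 0.16, adjusted p = 0.00126). MOT3, a repressor of hypoxic genes, was higher, with a difference of 1.08 (adjusted p = 0.00285). The S. paradoxus libraries had 114 and 123 CPM of HAP1.

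Citric acid cycle genes were divided, with 5 higher and 5 lower of 21 (7 and 1 under TMM) and a median of 0.10 (+0.40 from all genes). Left out in turn, the libraries gave 7, 1, 1 and 1 higher and 3, 7, 1 and 1 lower members. IDP1, the mitochondrial NADP-dependent isocitrate dehydrogenase, had 326 and 409 CPM in the hybrid, against 195 and 198 CPM in S. cerevisiae, a difference of 0.90 (SE 0.17, adjusted p = 0.00256). LSC2, a succinyl-CoA ligase subunit, had 106 and 88.8 CPM in the hybrid, against 210.3 and 209 CPM in S. cerevisiae, a difference of -1.11 (SE 0.18, adjusted p = 0.00144). Both hold their call.

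Glycolysis and fermentation genes moved in both directions. Of 28 genes tested, 5 were higher and 6 lower (9 and 3 under TMM), with a median of -0.07 (+0.22 from all genes). Both subunits of phosphofructokinase were higher, PFK1 by 0.70 (adjusted p = 0.00395) and PFK2 by 1.31 (adjusted p = 0.00231). Pyruvate decarboxylase was higher in both the main form PDC1, with 16385 and 14203 CPM in the hybrid, against 8575 and 8249.9 CPM in S. cerevisiae, and the minor form PDC5, which differed by 1.18 (adjusted p = 0.000378). PDC1 had the highest hybrid CPM of the genes described here, and its difference was 0.86 (SE 0.12, adjusted p = 0.000499). HXK2, the main hexokinase on glucose, had 673 and 896 CPM in the hybrid, against 398 and 366 CPM in S. cerevisiae, a difference of 1.04 (SE 0.16, adjusted p = 0.000993).

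The lower members included several isozymes. ENO1, an enolase whose reads may be shared with ENO2, had 596 and 771 CPM in the hybrid, against 1502 and 1913 CPM in S. cerevisiae, a difference of -1.32 (SE 0.20, adjusted p = 0.00104). ADH2, the glucose-repressed alcohol dehydrogenase, had 254 and 262 CPM in the hybrid, against 505 and 536 CPM in S. cerevisiae, a difference of -1.01 (SE 0.23, adjusted p = 0.00633). Of its hybrid reads 2.66% came from the S. paradoxus allele, and the S. paradoxus libraries had 6.76 and 9.32 CPM. GPM2, a minor phosphoglycerate mutase homolog, differed by -1.52 (adjusted p = 0.000405). GLK1, glucokinase, differed by -1.32 (adjusted p = 0.0346), and its adjusted p was 0.12 under TMM scaling, 0.0957 without hybrid replicate 1, 0.0806 without S. cerevisiae replicate 1 and 0.133 without S. cerevisiae replicate 2. TDH3, the main glyceraldehyde phosphate dehydrogenase, and GPM1, the main phosphoglycerate mutase, differed by -0.44 (adjusted p = 0.0396) and -0.49 (adjusted p = 0.0165). Neither passed under TMM scaling, without hybrid replicate 2 or without either S. cerevisiae replicate, and the adjusted p under TMM was 0.554 for TDH3 and 0.421 for GPM1. With the libraries left out in turn, the list had 7, 5, 5 and 5 higher and 7, 8, 3 and 3 lower members.

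Other carbon genes followed no single direction. HXT2, a high-affinity glucose transporter, had 349 and 493 CPM in the hybrid, against 83.7 and 59.2 CPM in S. cerevisiae, a difference of 2.56 (SE 0.29, adjusted p = 0.000201). The hexose transport and sensing list had 2 higher and 2 lower genes of 11 (3 and 0 under TMM), with a median of 0.29 and a range from all genes of -0.25 to 1.07 when 1 library was left out. No gluconeogenesis or glyoxylate gene of 19 was higher and 6 were lower (3 under TMM). The lower share of 31.6% was near the 28.5% of all genes. The list median was -0.54 (-0.24 from all genes, -0.63 to 0.04 with 1 library left out). MDH2, the cytosolic malate dehydrogenase of gluconeogenesis, had 8.37 and 16.7 CPM in the hybrid, against 44 and 37.9 CPM in S. cerevisiae, a difference of -1.71 (SE 0.28, adjusted p = 0.0014). ICL2, the mitochondrial methylisocitrate lyase, differed by -1.65 (adjusted p = 0.00112), and 9.47% of its hybrid reads came from S. paradoxus.

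The galactose and maltose list, which also holds the sucrose gene SUC2, was split as well. Of 10 tested, 2 were higher and 1 lower (4 and 1 under TMM), at a median of 0.43. That median moved between -0.28 and 1.31 from all genes when 1 library was left out. SUC2 was 1 of the 2 higher members, at 1.29 (adjusted p = 0.015). It does not hold its call, and its difference was 0.61 without hybrid replicate 2. GAL7, a transferase of galactose use, differed by -1.54 (adjusted p = 0.00508) while GAL10, the epimerase beside it on chromosome II, differed by 0.98 (adjusted p = 0.0229), with an adjusted p for GAL10 of 0.161 without S. cerevisiae replicate 1 and 0.0873 without S. cerevisiae replicate 2. In the list of butanediol, glycerol and acetate metabolism 2 were higher and 5 lower of 22 (2 and 2 under TMM; median -0.31, -0.01 from all genes). ACS2, the acetyl-CoA synthetase used on glucose, had 795 and 1022 CPM in the hybrid and 384 and 409 CPM in S. cerevisiae, a difference of 1.195 (adjusted p = 0.00104). GPP2, a glycerol phosphatase, had 78.5 and 88.5 CPM in the hybrid and 188 and 204 CPM in S. cerevisiae, a difference of -1.23 (adjusted p = 0.000363).

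Stress genes were the list with the lowest median with all libraries in the fit. Without hybrid replicate 1 the meiosis and sporulation list lay lower, at -0.87. Of 29 stationary-phase and general stress genes, 0 were higher and 17 lower (12 under TMM), and 10 hold their call. The list median was -1.12, -0.83 from all genes. The size depended on the hybrid library, since the median was -0.75 without hybrid replicate 1 and -1.74 without hybrid replicate 2, and lower members numbered 12, 21, 11 and 11 with the libraries left out in turn. GRE2, a methylglyoxal reductase, had 107 and 110.0 CPM in the hybrid, against 371 and 546 CPM in S. cerevisiae, a difference of -2.08 (SE 0.20, adjusted p = 7.9e-05). YGP1, a secreted glycoprotein of nutrient stress, had 49.6 and 99.3 CPM in the hybrid, against 229 and 251 CPM in S. cerevisiae, a difference of -1.69 (SE 0.28, adjusted p = 0.00141). SOL4, a 6-phosphogluconolactonase, had 8.16 and 27.5 CPM in the hybrid, against 58.4 and 64.9 CPM in S. cerevisiae, a difference of -1.79 (SE 0.44, adjusted p = 0.00893). In each of these the groups did not overlap, although the hybrid replicates of SOL4 differed from each other by a larger ratio than separated hybrid replicate 2 from S. cerevisiae. PAI3, the inhibitor of a vacuolar protease, was low in both groups, with 0.866 and 0.31 CPM in the hybrid, against 7.88 and 4.3 CPM in S. cerevisiae, a difference of -3.33 (SE 0.48, adjusted p = 0.000695). CTT1, the cytosolic catalase, had 72.2 and 230.3 CPM in the hybrid and 210.4 and 271 CPM in S. cerevisiae, with overlapping groups.

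Stored carbohydrate genes had no higher and 5 lower members of 19 (1 and 5 under TMM). The lower share of 26.3% was near the 28.5% of all genes, and the list median was -0.58 (-0.28 from all genes). That median was -0.16 without hybrid replicate 1 and -1.24 without hybrid replicate 2. NTH1, neutral trehalase, had 85.6 and 114 CPM in the hybrid, against 322 and 321 CPM in S. cerevisiae, a difference of -1.69 (SE 0.20, adjusted p = 0.000226), with 15.9% of hybrid reads from S. paradoxus. GSY2, the main glycogen synthase, had 54.5 and 189 CPM in the hybrid, against 404 and 470.3 CPM in S. cerevisiae, a difference of -1.84 (SE 0.43, adjusted p = 0.00702). TPS1, trehalose phosphate synthase, had 351 and 1004 CPM in the hybrid and 795 and 868 CPM in S. cerevisiae, so that its hybrid libraries lay on either side of S. cerevisiae.

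Oxidative stress genes had no higher member of 30 and 13 lower (3 and 5 under TMM), at a median of -0.53 (-0.24 from all genes). Lower members numbered 15, 13, 7 and 5 with the libraries left out in turn. Beside YHB1, the copper chaperone of superoxide dismutase CCS1 had 168 and 179 CPM in the hybrid, against 333 and 351 CPM in S. cerevisiae, a difference of -0.98 (SE 0.16, adjusted p = 0.00164). GLR1, glutathione reductase, differed by -0.81 (adjusted p = 0.00214) and the glutathione peroxidase GPX1 by -1.74 (adjusted p = 0.00101). These 4 hold their call.

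More chaperone genes were higher than lower. Of 38 genes, 14 were higher and 4 lower (20 and 1 under TMM), with a median of 0.24 (+0.53 from all genes, 0.44 to 0.64 with 1 library left out). HSP60, the mitochondrial chaperonin, had 917 and 956 CPM in the hybrid, against 400.3 and 402 CPM in S. cerevisiae, a difference of 1.22 (SE 0.16, adjusted p = 0.000355). SSA2, a cytosolic Hsp70 with a near-identical copy in SSA1, had 2419 and 1866 CPM in the hybrid, against 891 and 944 CPM in S. cerevisiae, a difference of 1.22 (SE 0.15, adjusted p = 0.000311). SSB1 and SSB2, near-identical Hsp70 proteins bound to the ribosome, differed by 0.99 and 1.01, and SSC1, the Hsp70 of the mitochondrial matrix, by 0.84. The lower members were FES1, HSP104, SBA1 and SSE2, of which SSE2 alone holds its call. SSE2, an Hsp110 induced by heat, had 34.5 and 49.6 CPM in the hybrid, against 76.1 and 81.4 CPM in S. cerevisiae, a difference of -0.90 (SE 0.19, adjusted p = 0.00492). HSP104, the disaggregase, differed by -0.64 (adjusted p = 0.0152), with an adjusted p of 0.188 under TMM scaling, 0.0598 without S. cerevisiae replicate 1 and 0.105 without S. cerevisiae replicate 2. Higher members numbered 12, 13, 7 and 5 and lower members 10, 3, 1 and 1 with the libraries left out in turn.

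Counts for genes of translation changed with the hybrid library. Of 35 translation factors 5 were higher and 1 lower (10 and 0 under TMM; median 0.05, +0.34 from all genes; 6, 7, 2 and 2 higher and 8, 0, 0 and 0 lower with the libraries left out in turn). HYP2, the translation factor eIF5A, had 2540.1 and 2101 CPM in the hybrid, against 855 and 789 CPM in S. cerevisiae, a difference of 1.497 (SE 0.16, adjusted p = 0.000102). YEF3, elongation factor 3 of fungi, had 3804 and 6519.9 CPM in the hybrid, against 1898 and 1823 CPM in S. cerevisiae, a difference of 1.47 (SE 0.21, adjusted p = 0.000636), and its reads may be shared with HEF3. Both hold their call. The tRNA synthetase list had 7 higher and 0 lower members of 17 (12 and 0 under TMM; median 0.37, +0.67 from all genes), and 7, 3, 0 and 0 were higher with the libraries left out in turn.

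Of 68 large and 48 small ribosomal protein genes, 12 and 3 were higher and none lower (21 and 15 higher under TMM, none lower). Their medians were 0.16 and 0.09. Without hybrid replicate 1 these medians were -0.10 and -0.22, and without hybrid replicate 2 they were 0.36 and 0.31. Large-subunit genes called higher numbered 6, 21, 2 and 2 and called lower 7, 0, 0 and 0 with the libraries left out in turn. Small-subunit genes called higher numbered 2, 10, 0 and 0 and called lower 10, 0, 0 and 0, so that without hybrid replicate 1 more of both were lower than higher. Most of these genes have a near-identical copy, so single members are uncertain. RPL7A and RPL15B hold their call, with differences of 1.09 (adjusted p = 0.000242) and 1.34 (adjusted p = 0.000729), and 69.4% and 78.4% of their hybrid reads came from S. paradoxus.

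Ribosome biogenesis genes had 10 higher and 0 lower members of 71 (14 and 0 under TMM), with a median of 0.04 (+0.34 from all genes). Without hybrid replicate 1 there were 10 higher and 25 lower members, and without hybrid replicate 2 there were 19 and 0. Without S. cerevisiae replicate 1 or 2, 6 and 2 were higher. The RNA helicase DBP2 and the nucleolar protein NSR1 hold their call, with differences of 0.999 (adjusted p = 0.00266) and 0.87 (adjusted p = 0.00351). The mitochondrial ribosomal proteins had 7 higher and 4 lower members of 69 (19 and 0 under TMM; median -0.07, +0.23 from all genes; 7, 5, 0 and 1 higher and 14, 1, 0 and 0 lower with the libraries left out in turn).

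**Figure D4:**
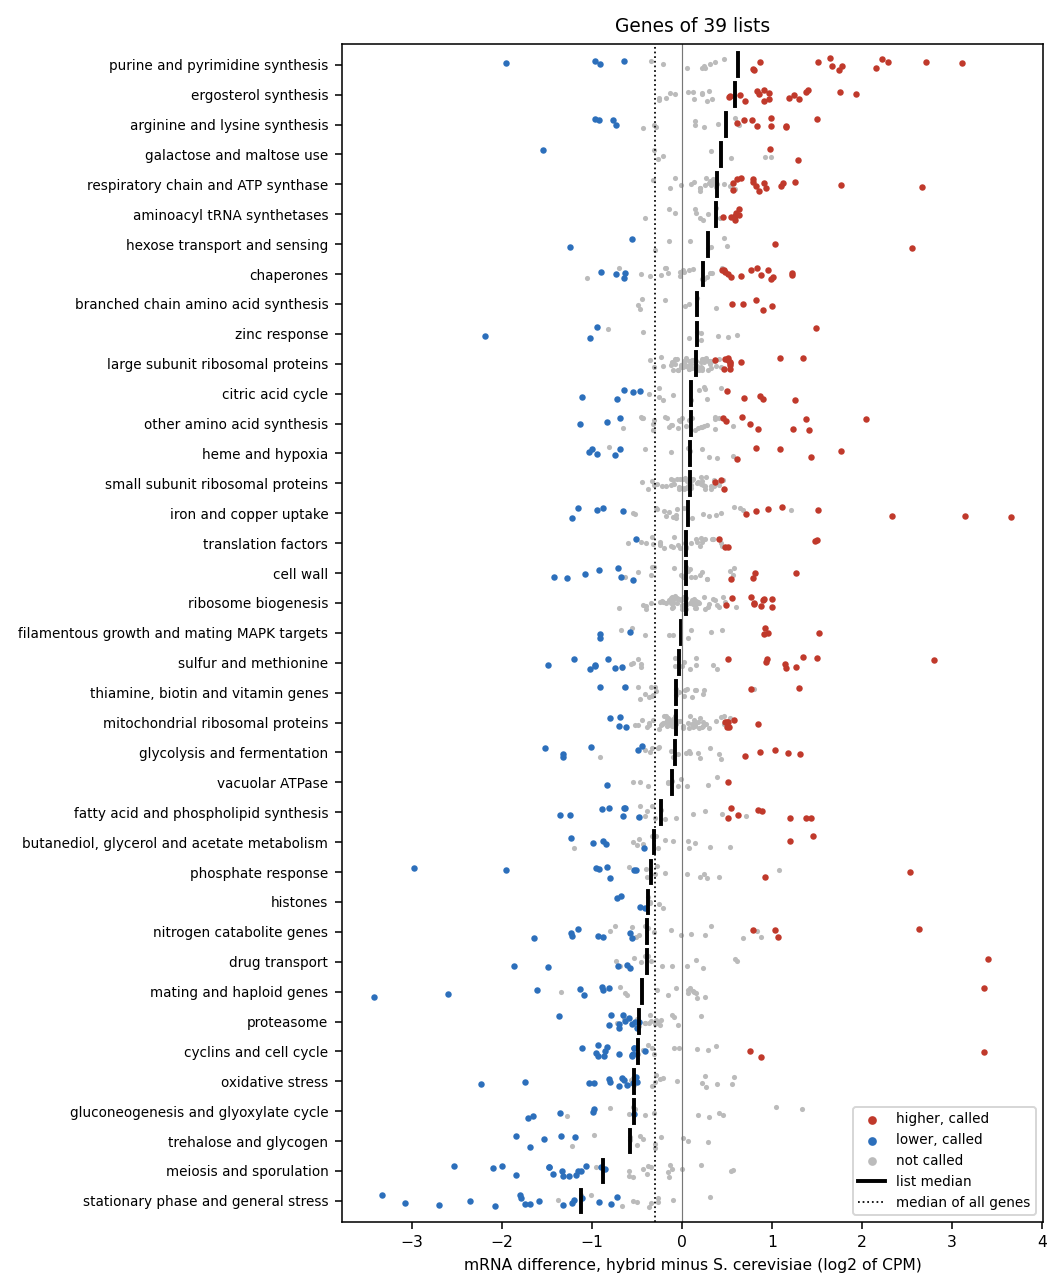
Difference in mRNA (hybrid minus S. cerevisiae, log2 of CPM) of each tested gene of the 39 lists, with genes called higher or lower in colour, the list median as a bar and the median of all genes as a dotted line at -0.30. Purine and ergosterol genes have the highest medians, 0.63 and 0.59, and stationary-phase and stress genes the lowest, -1.12.

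Metal genes included some of the largest gains. In the iron and copper list 8 of 34 genes were higher and 5 lower (12 and 2 under TMM), with a median of 0.07 (+0.37 from all genes, 0.02 to 0.72 with 1 library left out). Beside HMX1 and CTR3, the ferric reductase FRE4 had 92.1 and 79.2 CPM in the hybrid, against 17.9 and 16.1 CPM in S. cerevisiae, a difference of 2.33 (SE 0.32, adjusted p = 0.000499). The S. paradoxus libraries had 337 and 421 CPM of FRE4. FET3, the multicopper oxidase of iron uptake, had 378 and 636 CPM in the hybrid, against 249 and 108 CPM in S. cerevisiae, a difference of 1.51 (adjusted p = 0.0212), and its adjusted p was 0.0848 without hybrid replicate 2 and 0.161 without S. cerevisiae replicate 2. AFT2, an activator of iron genes, was lower, with 79.1 and 63 CPM in the hybrid, against 152 and 164 CPM in S. cerevisiae, a difference of -1.15 (SE 0.20, adjusted p = 0.00217). Higher members numbered 14, 5, 7 and 3 and lower members 4, 5, 2 and 3 with the libraries left out in turn.

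In the zinc list 1 gene was higher and 3 lower of 13 (5 and 1 under TMM; median 0.17, -0.01 to 0.69 from all genes with 1 library left out). ZRT1, the high-affinity zinc transporter, had 239.6 and 338 CPM in the hybrid, against 110.1 and 95.7 CPM in S. cerevisiae, a difference of 1.49 (SE 0.23, adjusted p = 0.000947). The S. paradoxus allele gave 13.4% of the hybrid reads of ZRT1, so the gain came mostly from reads of the S. cerevisiae allele.

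Phosphate genes had 2 higher and 8 lower members of 22 (4 and 4 under TMM) and a median of -0.34 (-0.05 from all genes), so the list as a whole lay near all genes. PHO5, the secreted acid phosphatase, had 210.3 and 431 CPM in the hybrid, against 1145 and 1335 CPM in S. cerevisiae, a difference of -1.95 (SE 0.29, adjusted p = 0.000801), and may share reads with PHO3. VTC1, a subunit of polyphosphate polymerase, had 524 and 439 CPM in the hybrid, against 962 and 905 CPM in S. cerevisiae, a difference of -0.96 (SE 0.18, adjusted p = 0.00273). GDE1, a glycerophosphocholine phosphodiesterase, differed by -0.92 (adjusted p = 0.0046). PHO90, a low-affinity transporter, was higher, with 394 and 576 CPM in the hybrid, against 261 and 252 CPM in S. cerevisiae, a difference of 0.92 (SE 0.20, adjusted p = 0.0051). PHO89, a sodium-phosphate transporter, had 351 and 1113 CPM in the hybrid, against 180.3 and 71.9 CPM in S. cerevisiae, a difference of 2.54 (adjusted p = 0.00676), and its adjusted p was 0.0626 without S. cerevisiae replicate 2. PHO84, the main high-affinity transporter, had 1443 and 2713 CPM in the hybrid and 2709.7 and 2773 CPM in S. cerevisiae, with overlapping groups. Higher members numbered 5, 2, 2 and 1 and lower members 8, 10, 5 and 5 with the libraries left out in turn.

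Sulfur and methionine genes moved in both directions. Of 32 tested, 9 were higher and 8 lower (11 and 4 under TMM), with a median of -0.03 (+0.26 from all genes). The higher members included 3 that make or recycle S-adenosyl compounds. SAM1 and SAM2, S-adenosylmethionine synthetases with closely related sequences, differed by 1.35 (adjusted p = 0.000766) and 1.49 (adjusted p = 0.000175). SAH1, which hydrolyses S-adenosylhomocysteine, had 1490.2 and 1659.8 CPM in the hybrid, against 728 and 687 CPM in S. cerevisiae, a difference of 1.15 (SE 0.14, adjusted p = 0.000271). CBF1, a DNA-binding factor of methionine genes and centromeres, had 71.7 and 75.3 CPM in the hybrid, against 202 and 209 CPM in S. cerevisiae, a difference of -1.49 (SE 0.17, adjusted p = 0.00023). MET16, a sulfate assimilation enzyme, had 23.3 and 19.1 CPM in the hybrid, against 42.3 and 43.7 CPM in S. cerevisiae, a difference of -1.02 (SE 0.22, adjusted p = 0.00496). These 5 genes hold their call. Higher members numbered 11, 7, 5 and 5 and lower members 10, 13, 3 and 4 with the libraries left out in turn.

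Amino acid genes rose more often than they fell, and few of them hold their call. The arginine and lysine list had 9 higher and 4 lower of 22 (13 and 2 under TMM; median 0.49, +0.79 from all genes). Its higher members numbered 13, 4, 1 and 2 and its lower members 5, 5, 1 and 3 with the libraries left out in turn, and 0 of the higher hold their call. The branched-chain list had 5 higher and 0 lower of 13 (6 and 0 under TMM; median 0.17, +0.47 from all genes; 5, 2, 0 and 1 higher with the libraries left out in turn). The list of other amino acids had 9 higher and 3 lower of 42 (15 and 2 under TMM; median 0.10, +0.39 from all genes; 15, 6, 2 and 3 higher and 5, 4, 1 and 2 lower with the libraries left out in turn). GLT1, glutamate synthase, had 267 and 452 CPM in the hybrid, against 137 and 134 CPM in S. cerevisiae, a difference of 1.41 (SE 0.28, adjusted p = 0.00356). ARG7, an acetyltransferase of ornithine synthesis, differed by -0.92 (adjusted p = 0.0051) and HIS2, a phosphatase of histidine synthesis, by -0.83 (adjusted p = 0.00295). These 3 hold their call.

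Nitrogen catabolite genes had 4 higher and 8 lower members of 28 (6 and 5 under TMM; median -0.39, -0.09 from all genes; 9, 2, 2 and 2 higher and 7, 13, 5 and 3 lower with the libraries left out in turn). GAT1, a GATA activator of these genes, had 14.9 and 33.1 CPM in the hybrid, against 70 and 79.8 CPM in S. cerevisiae, a difference of -1.64 (SE 0.35, adjusted p = 0.00498). UGA1, a transaminase of GABA use, had 52.8 and 106 CPM in the hybrid, against 178 and 192 CPM in S. cerevisiae, a difference of -1.22 (SE 0.25, adjusted p = 0.00418). TAT2, a tryptophan permease, was higher, with 190.2 and 325 CPM in the hybrid, against 130.0 and 122 CPM in S. cerevisiae, a difference of 1.03 (SE 0.22, adjusted p = 0.00468). The vitamin list had 2 higher and 2 lower of 26 (2 and 1 under TMM; median -0.07, -0.16 to 0.58 from all genes with 1 library left out). BNA4, an enzyme of NAD synthesis from tryptophan, was its higher member that holds its call, at 1.30 (adjusted p = 0.00263).

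Genes of mating had a share of lower calls near that of all genes, 28.5%, and genes of meiosis a larger share, 16 of 32. In diploid yeast the a1-alpha2 repressor keeps haploid genes low, and meiotic genes await starvation. Of 24 mating and haploid genes 1 was higher and 8 lower, 33.3% of those tested (1 and 4 under TMM), with a median of -0.44 (-0.15 from all genes, -0.16 to 0.08 with 1 library left out). Levels were low in both groups. STE4, the beta subunit of the mating G protein, had 12.3 and 14.3 CPM in the hybrid, against 40.5 and 40.5 CPM in S. cerevisiae, a difference of -1.61 (SE 0.24, adjusted p = 0.000907). STE11, a kinase of the mating and osmotic pathways, differed by -1.13 (adjusted p = 0.00198). FAR1, an inhibitor of the cyclin-dependent kinase in pheromone arrest, was the higher member, with 7.65 and 9.68 CPM in the hybrid, against 0.563 and 1.11 CPM in S. cerevisiae, a difference of 3.35 (SE 0.44, adjusted p = 0.000405). The S. paradoxus libraries had 7.05 and 11.8 CPM of FAR1, and 80.3% of its hybrid reads were from that allele. The S. cerevisiae values of FAR1 rest on few reads, so the size of its difference is uncertain. HMLALPHA1, which shares its sequence with the mating-type locus, had 0.144 and 0.0775 CPM in the hybrid, against 1.13 and 1.53 CPM in S. cerevisiae, and no fold is given because the hybrid value rests on 1 or 2 reads per library. Lower members numbered 7, 8, 4 and 3 with the libraries left out in turn.

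Of 32 meiosis and sporulation genes 0 were higher and 16 lower (9 under TMM), at a median of -0.88, -0.58 from all genes. That distance was -0.58 to -0.53 with 1 library left out, and lower members numbered 13, 15, 6 and 6. IME1, the master activator of meiosis, had 11.3 and 12.9 CPM in the hybrid, against 23.5 and 30.3 CPM in S. cerevisiae, a difference of -1.16 (adjusted p = 0.00613), and its adjusted p was 0.0714 without S. cerevisiae replicate 2. SPO11, which makes the meiotic double-strand breaks, had 1.3 and 1.63 CPM in the hybrid, against 5.2 and 7.36 CPM in S. cerevisiae, a difference of -2.10 (SE 0.41, adjusted p = 0.0032). ZIP1, a protein of the synaptonemal complex, had 17.5 and 9.99 CPM in the hybrid, against 40.2 and 36.5 CPM in S. cerevisiae, a difference of -1.48 (SE 0.28, adjusted p = 0.00266). ZIP2 and SPS19 differed by -1.85 (adjusted p = 0.000708) and -1.998 (adjusted p = 0.00504). In these bulk libraries a lower level in every cell and fewer cells with the mRNA cannot be told apart.

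Cell cycle genes, 27 in the list, had 3 higher and 14 lower members (4 and 6 under TMM), at a median of -0.49 (-0.19 from all genes). SWI5, the factor that starts late mitotic transcription, had 51.5 and 51.3 CPM in the hybrid, against 101 and 98.7 CPM in S. cerevisiae, a difference of -0.96 (SE 0.18, adjusted p = 0.00293). PCL9, a Pho85 cyclin, had 93.5 and 96.8 CPM in the hybrid, against 206 and 206 CPM in S. cerevisiae, a difference of -1.12 (SE 0.19, adjusted p = 0.00207). CTS1, the chitinase that separates daughter from mother, had 254 and 514 CPM in the hybrid, against 961 and 899 CPM in S. cerevisiae, a difference of -1.28 (SE 0.28, adjusted p = 0.00508). DSE1, a daughter-specific protein, had 218 and 209 CPM in the hybrid, against 583 and 565 CPM in S. cerevisiae, a difference of -1.43 (SE 0.19, adjusted p = 0.000405). The cyclins CLB1 and PCL1 were lower too, by -0.85 and -0.87. CLN3, the cyclin that starts the cycle, had 72.2 and 102 CPM in the hybrid and 50.6 and 52.5 CPM in S. cerevisiae, a difference of 0.76 (adjusted p = 0.00959), with an adjusted p of 0.0751 without S. cerevisiae replicate 1 and 0.0606 without S. cerevisiae replicate 2. Lower members numbered 12, 12, 4 and 5 with the libraries left out in turn.

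The cell wall list had 4 higher and 7 lower of 31 (6 and 3 under TMM; median 0.05, +0.34 from all genes; 11, 1, 1 and 1 higher and 5, 12, 3 and 4 lower with the libraries left out in turn). CWP2, a major wall mannoprotein, had 1377 and 1338 CPM in the hybrid, against 2409 and 3297 CPM in S. cerevisiae, a difference of -1.07 (SE 0.19, adjusted p = 0.00217). TIR3, a mannoprotein of anaerobic growth, was higher, with 91.5 and 95.5 CPM in the hybrid, against 35.2 and 42.8 CPM in S. cerevisiae, a difference of 1.26 (SE 0.22, adjusted p = 0.00214). Of the hybrid reads of TIR3 4.15% came from S. paradoxus, and the S. paradoxus libraries had 11.4 and 6.95 CPM. Both hybrid libraries of TIR3 lay above all 4 libraries of the parents.

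Proteasome genes had no higher member of 31 and 12 lower on own totals, and 1 higher and 1 lower under TMM (median -0.48, -0.18 from all genes; 23, 4, 1 and 1 lower with the libraries left out in turn). The member that holds its call was RPN4, the activator of proteasome genes, with 127 and 98.6 CPM in the hybrid, against 269 and 312 CPM in S. cerevisiae, a difference of -1.36 (SE 0.19, adjusted p = 0.000475). Histones had 4 lower members of 9 on own totals and 0 under TMM, and none higher (median -0.38, -0.08 from all genes). The vacuolar ATPase had 1 higher and 1 lower of 13 (3 and 0 under TMM; median -0.12, +0.18 from all genes). Targets of the filamentous and mating kinases had 4 higher and 3 lower of 16 (5 and 1 under TMM; median -0.01, +0.28 from all genes). Drug transport genes had 1 higher and 5 lower of 20 (3 and 2 under TMM; median -0.39, -0.10 from all genes). QDR2, a multidrug and cation transporter, had 35.5 and 71.4 CPM in the hybrid, against 174 and 214 CPM in S. cerevisiae, a difference of -1.86 (SE 0.28, adjusted p = 0.000947). TPO2, a polyamine transporter, differed by -1.49 (adjusted p = 0.00123).

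Lists without a called member in 1 direction were also counted at an unadjusted p under 0.05 in edgeR (502 genes higher, 9.73%, and 1893 lower, 36.7%, over all genes) and in the other tools. DESeq2 called 16.4% of genes higher and 10.9% lower, and limma voom 13.8% and 13.5%. No higher member was found for the stress, meiosis or histone lists at that p, nor by DESeq2 or limma voom. For the oxidative stress list 1 member was higher at that p, 5 in DESeq2 and 3 in limma voom, and for gluconeogenesis the counts were 1, 1 and 0. The trehalose and proteasome lists had 0 at that p and 1 in each of the other tools. No lower member was found at that p or by the other tools in the ergosterol, respiratory, tRNA synthetase and both ribosomal protein lists. Ribosome biogenesis had 1 lower member at that p and branched-chain synthesis 3, with none in the other tools. Leaving out 1 hybrid library added calls in these directions. Without hybrid replicate 1 there was 1 higher stress, trehalose and oxidative stress gene each and 2 of gluconeogenesis, and 1 lower tRNA synthetase, respiratory and ergosterol gene each and 2 of branched-chain synthesis. Without hybrid replicate 2 there was 1 higher oxidative stress and meiosis gene each, and 1 lower ergosterol gene and 2 of branched-chain synthesis.

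Ribosome occupancy came from other libraries of the same strains, and it was used to see whether the mRNA differences were present there. Of 5159 genes 233 had higher occupancy in the hybrid (4.52%) and 414 lower (8.02%). Of the 374 genes with more mRNA, 118 had higher occupancy and 5 lower, with a median occupancy difference of 0.42. Of the 1470 genes with less mRNA, 6 had higher occupancy and 290 lower, with a median of -0.31. The 3315 uncalled genes had a median of -0.02. Across the 5159 genes, which are not independent replicates, the mRNA and occupancy differences correlated with Pearson's r of 0.571.

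Of the 12 genes with the largest mRNA gain 8 were called higher in occupancy, and of the 12 with the largest loss 12 were called lower. The 4 gains without an occupancy call were YBR032W at 0.05 (adjusted p = 0.984), PDR18 at 1.26 (adjusted p = 0.0836), ADE6 at 0.95 (adjusted p = 0.0582) and HXT17 at 0.80 (adjusted p = 0.649). HMX1 had 91.1 and 113 CPM of occupancy in the hybrid, against 8.42 and 5.55 CPM in S. cerevisiae, a difference of 3.84 (adjusted p = 2.1e-05). CTR3 had 99.98 and 120.1 CPM in the hybrid, against 4.6 and 3.1 CPM in S. cerevisiae, a difference of 4.80 (adjusted p = 1.2e-05). YHB1 had 329 and 336 CPM in the hybrid, against 1704 and 1818 CPM in S. cerevisiae, a difference of -2.40 (adjusted p = 1.2e-05). The occupancy differences of ADE17, CYC1, HMG1 and URA1 were 3.88, 2.49, 1.81 and -2.13, against mRNA differences of 3.11, 2.67, 1.93 and -1.96. The hybrid occupancy of ADE17 was 928 and 3106 CPM, so its replicates lay far apart. Stress genes had 15 lower and 0 higher members in occupancy, at a median of -1.34, and respiratory genes 20 higher and 0 lower, at a median of 0.77. Purine and pyrimidine genes had 9 higher and 4 lower, at a median of 0.25 (0.63 in mRNA). Ergosterol genes had 9 higher and 2 lower, at a median of 0.40 (0.59 in mRNA).

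Some lists had fewer members called higher in occupancy than in mRNA. The share of all genes called higher was smaller in occupancy too, 4.52% against 7.25%. Glycolytic genes had 1 higher and 9 lower members in occupancy, against 5 and 6 in mRNA. The tRNA synthetases had 0 and 0 in occupancy (0 and 0 at an unadjusted p under 0.05), against 7 and 0 in mRNA. Chaperones had 0 higher and 4 lower (4 and 4 unadjusted), against 14 and 4 in mRNA. Citric acid cycle genes had 1 higher and 7 lower, against 5 and 5 in mRNA. Other lists went the other way. Mitochondrial ribosomal proteins had 14 higher and 0 lower in occupancy, at a median of 0.43, against 7 and 4 in mRNA, at a median of -0.07. Respiratory genes had 20 higher in occupancy, against 15 in mRNA. YEF3, ACC1 and HSP60, all higher in mRNA, had occupancy differences of 0.26 (adjusted p = 0.452), 0.05 (adjusted p = 0.928) and 0.26 (adjusted p = 0.312). Whether the occupancy difference of a gene was unlike its mRNA difference was tested as an interaction, which passed for 48 genes (0.93%), 33 with the occupancy difference above and 15 below. That count is not stable, since it was 8 when S. cerevisiae Ribo-seq replicate 1 was left out and 1312 when hybrid RNA-seq replicate 1 was left out.

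**Figure D5:**
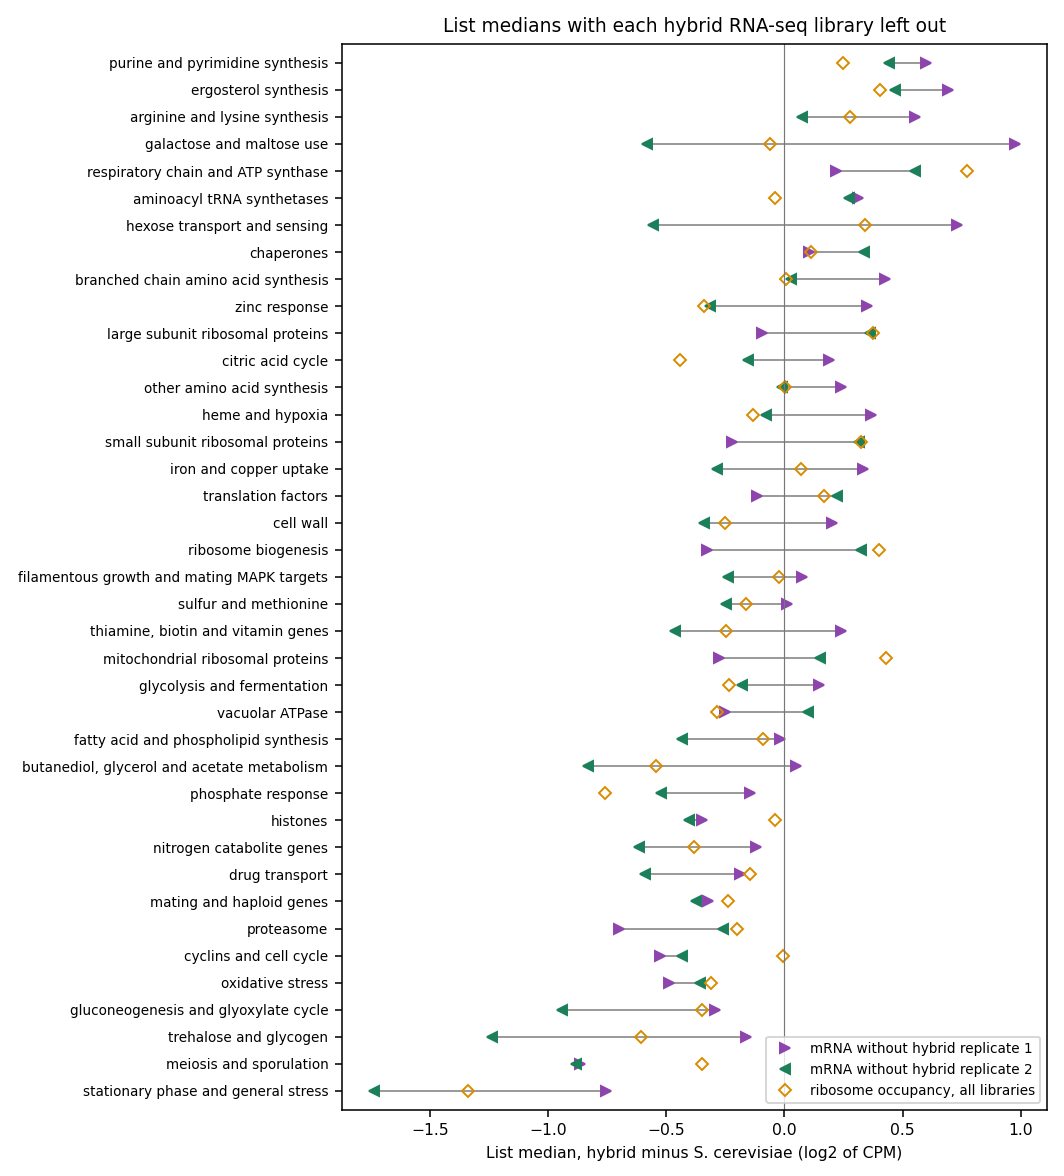
Median difference of each of the 39 lists (hybrid minus S. cerevisiae, log2 of CPM) in mRNA without hybrid replicate 1 (triangles to the right), in mRNA without hybrid replicate 2 (triangles to the left) and in ribosome occupancy (diamonds). Stress genes lie at -0.75, -1.74 and -1.34, meiosis genes are nearly the same without either hybrid replicate, and the galactose and hexose transport lists are among those that change sign between them.

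The origin of the hybrid reads differed between genes that rose and genes that fell. The S. paradoxus allele gave a median of 55.2% of hybrid reads for the 374 higher genes (quartiles 50.7% and 63.5%) and 47.8% for the 1470 lower genes (42.4% and 52.4%), against 51.8% for the 3315 uncalled genes (47.1% and 56.5%). A share over 75% was found for 42 higher, 5 lower and 55 uncalled genes, and a share under 25% for 3 higher, 48 lower and 21 uncalled genes. ZRT1 and TIR3 were among the 3 higher genes with a low S. paradoxus share. ADH2, HSP31, NTH1, STE4, SPO11 and ICL2 were among the 48 lower ones, with shares of 2.66%, 15.1%, 15.9%, 19.4%, 10.3% and 9.47%. These are read shares of the same hybrid libraries, given as a description. Comparisons of S. paradoxus and of the hybrid with S. cerevisiae share the S. cerevisiae libraries, so S. paradoxus levels are given beside the members without a test of likeness.

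Differences were spread over the genome. Median log2 differences of the 16 chromosomes ran from -0.15 on chromosome I to -0.36 on chromosome XI. Genes of high occupancy in S. cerevisiae were less reduced. In 5 bins of equal gene number by mean S. cerevisiae occupancy, from low to high, the median mRNA difference was -0.43, -0.47, -0.34, -0.24 and -0.01. The highest bin held 173 of the 374 higher genes and 165 of the 1470 lower genes. In 5 such bins of coding length the medians ran between -0.24 and -0.34.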

How the data were processed

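RNA-seq and Ribo-seq of diploid yeast were analysed from a deposited table of read counts per gene, with 5226 genes in 16 columns, per the file headers. The hybrid had a count column for each allele, and the headers of the parental columns carry the word "Mix", which no source used here explains. Bowtie 0.12.8, cutadapt 1.2.1, bedtools 2.17.0 and CASAVA 1.8 are named, with the build sacCer3, per the submitters' processing notes. Not given in the sources used here are their settings, whether counting used strand, and the assembly of S. paradoxus. The library kit kept the sense strand per the labels' protocols, and counts of overlapping, antisense and duplicated genes are uncertain. Gene positions were in deposited coordinate tables, and 5183 of the IDs matched the R64 gene table while 43 did not. Columns from a hybrid allele, and those of S. paradoxus and of Ribo-seq, held no value of 0, while 15 and 18 genes were at 0 in the columns for S. cerevisiae RNA-seq.

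The alleles of each hybrid library were summed, which gave 12 libraries. edgeR 4.0.16 in R 4.3.3 was fitted to the counts as deposited, with group means, library sizes equal to the own totals, filterByExpr at a minimum count of 10, its quasi-likelihood test and an adjusted p (Benjamini-Hochberg, over the genes tested) under 0.05. All 12 libraries shared the estimate of the spread, which left 6 residual degrees of freedom. CPM are counts divided by the library total and multiplied by 1000000. The test was checked on simulated counts. These had the same spread in every gene and library, and no shift of the median gene. The check therefore could not show how the test behaves with the wider spread of the hybrid RNA-seq libraries or with such a shift.

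The genes named were the 12 with the largest gain and the 12 with the largest loss among called genes whose groups did not overlap, with a mean of at least 10 CPM in the higher group and coding lengths within 10%. Up to 4 called members of each list with the smallest adjusted p, and members that the text goes through by role, were named as well. The comparison, the members and the gene lists were chosen with earlier results of these data known. Alternatives were TMM and RLE scaling, other filters, other sets of libraries in the fit, DESeq2 1.42.0, limma 3.58.1 voom, a replicate block, coding length and each library left out. TMM scaling without 1 hybrid replicate or with the block was added after the data were seen. No gene or promoter sequence is shown, since none was used here.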

Additional observations from a re-analysis of the deposited data

Results flagged for a closer look

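For 7 of the genes described, the occupancy difference was unlike the mRNA difference in a test of the interaction (quasi-likelihood test of edgeR, Benjamini-Hochberg adjusted over 5159 genes), and the cause was not tested. Values are occupancy difference minus mRNA difference, each hybrid minus S. cerevisiae, on the log2 scale. They come from the fit of all 12 libraries on own totals. The number of genes that this test called changed widely with the processing, as given below.

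FAR1 had a value of -4.53 (adjusted p = 0.0105), since its mRNA was higher in the hybrid while its occupancy was 0.441 and 0.656 CPM in the hybrid, against 1.23 and 1.31 CPM in S. cerevisiae. Its mRNA in S. cerevisiae was 0.563 and 1.11 CPM. That mRNA and the occupancy in both strains rest on few reads, so the size of this value is uncertain. HXK2 had -1.18 (adjusted p = 0.0283), with 2234 and 2297 CPM of occupancy in the hybrid, against 2621 and 2377 CPM in S. cerevisiae. IDP1 had -1.45 (adjusted p = 0.0124), with 505 and 471 CPM of occupancy in the hybrid, against 731 and 692 CPM in S. cerevisiae. KNS1, a protein kinase of the LAMMER family, had -1.80 (adjusted p = 0.0389), with mRNA of 45.8 and 58.1 CPM in the hybrid, against 26.6 and 28.1 CPM in S. cerevisiae, and occupancy of 16.5 and 21.8 CPM in the hybrid, against 35.4 and 34.9 CPM in S. cerevisiae. RPN4 had 1.33 (adjusted p = 0.0331), with 85.4 and 96.6 CPM of occupancy in the hybrid, against 95.1 and 90.6 CPM in S. cerevisiae. YRR1, a zinc cluster factor of drug resistance genes, had 1.32 (adjusted p = 0.0285), with mRNA of 51.9 and 57.9 CPM in the hybrid, against 91 and 88.5 CPM in S. cerevisiae, and occupancy of 28.1 and 26.6 CPM in the hybrid, against 19.5 and 16 CPM in S. cerevisiae. YBR032W had -8.23 (adjusted p = 0.0448), and its occupancy rests on at most 2 reads in any library, so this value is no measure of size.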

How the results depend on the processing

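Against 374 higher and 1470 lower genes as reported, TMM gave 731 and 579, RLE 763 and 536, DESeq2 846 and 564, and limma voom 714 and 697. The 4 libraries of the contrast alone gave 94 and 318 (412 in all, 328 of at least 2-fold), and the 6 RNA-seq libraries 191 and 668 (859 in all). With 1 library left out, the calls ran from 658 to 2531 in all, 135 to 641 higher, 516 to 1890 lower and 436 to 982 of at least 2-fold. The added fits with TMM and 1 hybrid replicate left out gave 1504 to 2278 calls, 805 to 1082 higher, 699 to 1196 lower and 455 to 732 of at least 2-fold. Filters, coding length and its removal left these counts within 1.5 times.

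The interaction of occupancy and mRNA was the least stable result. Against 48 genes (33 above and 15 below), TMM gave 44 below, RLE 80 with 50 below, DESeq2 274 with 67 above and 207 below, limma voom 16 above and 25 below, removal of the length trend 83 with 53 above and 30 below, and the 8 libraries alone 4 below. With 1 library left out it ran from 8 to 1312 genes, 8 to 908 above and 0 to 404 below. With TMM and 1 hybrid replicate left out it ran from 98 to 1277, with 39 to 599 above and 59 to 678 below.

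The replicate number is shared by the groups, but no label ties same-numbered libraries. The log2 difference between replicates in hybrid RNA-seq correlated with that in S. cerevisiae RNA-seq at 0.32 across the tested genes. That value rests on 2 libraries in each group. With the replicate number as a replicate block, 2044 genes passed, 407 higher and 1637 lower, and the interaction passed for 72, of which 25 below. TMM with the replicate block gave 819 higher and 695 lower, and 100 for the interaction, with 65 below.

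Of the 218 genes named in the text or by the rule, 59 lost their call without S. cerevisiae replicate 1, 62 without S. cerevisiae replicate 2, 7 without hybrid replicate 1, 21 without hybrid replicate 2, 28 under TMM and 100 with the 4 libraries alone, which leave 2 residual degrees of freedom. No called gene changed direction. Of the uncalled genes named, ECM22 turned from -0.25 to 0.036 under TMM, 0.06 under RLE and in DESeq2, 0.034 in limma voom and with TMM and the block, and 0.075 with TMM without hybrid replicate 1. ERG6 turned from -0.08 to 0.215 under TMM, 0.239 under RLE and in DESeq2, 0.168 in limma voom, 0.193 with TMM and the block, -0.499 to 0.249 with 1 library left out and 0.543 with TMM without hybrid replicate 2. TPS1 turned from -0.30 to 0.017 under RLE and in DESeq2, -1.246 to 0.272 with 1 library left out and 0.529 with TMM without hybrid replicate 1. With 1 library left out HMG2 ran from -0.315 to 0.366 (-0.022 with TMM without hybrid replicate 2) and UPC2 from -0.062 to 0.461. With TMM and without hybrid replicate 1 CTT1 lay at 0.193 and PHO84 at 0.242, and with TMM and without hybrid replicate 2 BAS1 lay at 0.198. With 1 library left out, the medians of 14 of the 39 lists lay on either side of the median of all genes, among them hexose transport (-0.25 to 1.07), galactose (-0.28 to 1.31), trehalose (-0.93 to 0.17) and gluconeogenesis (-0.63 to 0.04). The mating and haploid list lay at -0.15 as reported, at 0.022 with no filter on low counts, at 0.027 without genes of unequal coding length and at -0.157 to 0.081 with 1 library left out, and the cause was not tested. Depth limits genes with few reads, such as those of mating and meiosis, and 2 libraries a group limit every comparison.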
